A study of Homo sapiens with 4 samples.

Results

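The keratin-associated protein (KRTAP) genes were followed in HuCCT1, an established human cholangiocarcinoma (bile duct cancer) cell line. The family was taken as every gene whose symbol is KRTAP followed by a subfamily number and a gene number, measured by at least 1 array row that the platform annotation gives to that gene alone. This left 66 genes on 69 rows, of 18377 genes in all. The family was chosen because KRTAP3-1 had the largest increase of any gene with either drug alone, so its own ratios are a description and support nothing. The question put to the data was whether other members of the family were higher on the same arrays.

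Total RNA was hybridised to 4 Affymetrix Human Gene 1.0 ST arrays, 1 for untreated cells, 1 for cells given VPA, 1 for cells given GEM and 1 for cells given both (the combination). VPA and GEM are the labels' abbreviations. They are read here with their usual meanings, valproic acid, which inhibits histone deacetylases, and gemcitabine, a nucleoside analogue used against bile duct cancer. All 4 samples are the same cell line, and the sources used here give neither doses nor exposure times. Each condition was measured once, so no difference has an error or a test, and precision is limited by having so few arrays. The arrays fell into pairs as wholes: over all 28869 rows, untreated and combination correlated at 0.996, as did VPA and GEM, while the other pairs correlated at 0.984 to 0.987. Which array holds which treatment rests on the labels alone. An exchange of labels between arrays was not tested and cannot be settled from these files, and it would change what every ratio given here for VPA, GEM or the combination means.

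Keratin-associated proteins form the matrix between the keratin filaments of the hair shaft. They are small proteins without introns in their genes, made late in the hair follicle as its cells harden, and their many cysteines cross-link them to hair keratins. The family is sorted by composition into high sulfur, ultra-high sulfur and high glycine-tyrosine proteins, and its genes lie in dense clusters of near copies. The bile duct is a simple epithelium that makes no hair.

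RefSeq (GRCh38.p14) lists 94 protein-coding KRTAP genes in its gene order, in 5 clusters on chromosomes 11, 17 and 21. Of these, 66 were the measured members, 20 were named only on rows that list several KRTAP genes, and 8 were on neither kind of row. The chromosome 17 cluster, which holds KRTAP3-1, has 34 genes, of which 12 were members. The 25 rows that list several KRTAP genes each name genes of 1 subfamily. They are described below by subfamily, because the single gene behind such a row is not known.

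The start regions of 5 genes of the chromosome 17 cluster are shown because these genes lie near each other and their rows behaved differently. They are the 250 bases before and 50 bases after each RefSeq start in GRCh38.p14, printed 5′ to 3′ on the gene's strand, and capitals mark the TATA box spellings TATAAA and TATATAA. KRTAP3-1, KRTAP3-2 and KRTAP3-3 are its own subfamily, KRTAP2-3 is 1 of the 4 KRTAP2 genes named on rows that differed, and KRTAP4-4 is the other member that was 2-fold higher with VPA.
KRTAP3-1 (chr17:41009079-41009378, minus strand): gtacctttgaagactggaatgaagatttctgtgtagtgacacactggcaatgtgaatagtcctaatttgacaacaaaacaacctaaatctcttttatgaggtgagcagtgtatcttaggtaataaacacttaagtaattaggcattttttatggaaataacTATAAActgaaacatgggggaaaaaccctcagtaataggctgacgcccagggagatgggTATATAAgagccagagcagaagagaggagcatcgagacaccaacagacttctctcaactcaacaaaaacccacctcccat
KRTAP3-2 (chr17:40999857-41000156, minus strand): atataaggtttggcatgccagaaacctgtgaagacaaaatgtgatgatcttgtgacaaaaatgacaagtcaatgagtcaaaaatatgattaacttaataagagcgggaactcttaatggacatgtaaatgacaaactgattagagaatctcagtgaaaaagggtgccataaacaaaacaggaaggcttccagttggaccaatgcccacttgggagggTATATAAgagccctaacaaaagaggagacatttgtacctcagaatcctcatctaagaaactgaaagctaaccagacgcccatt
KRTAP3-3 (chr17:40994115-40994414, minus strand): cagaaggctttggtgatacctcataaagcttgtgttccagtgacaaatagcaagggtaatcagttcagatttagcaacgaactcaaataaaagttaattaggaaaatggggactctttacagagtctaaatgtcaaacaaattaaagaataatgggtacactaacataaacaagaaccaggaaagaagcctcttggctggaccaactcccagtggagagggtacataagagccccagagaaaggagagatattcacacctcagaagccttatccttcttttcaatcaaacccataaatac
KRTAP2-3 (chr17:41060065-41060364, minus strand): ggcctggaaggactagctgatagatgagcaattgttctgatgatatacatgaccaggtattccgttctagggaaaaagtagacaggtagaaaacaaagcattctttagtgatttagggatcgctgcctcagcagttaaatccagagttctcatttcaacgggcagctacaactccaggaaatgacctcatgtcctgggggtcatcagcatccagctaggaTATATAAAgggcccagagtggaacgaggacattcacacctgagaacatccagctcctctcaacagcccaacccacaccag
KRTAP4-4 (chr17:41160699-41160998, minus strand): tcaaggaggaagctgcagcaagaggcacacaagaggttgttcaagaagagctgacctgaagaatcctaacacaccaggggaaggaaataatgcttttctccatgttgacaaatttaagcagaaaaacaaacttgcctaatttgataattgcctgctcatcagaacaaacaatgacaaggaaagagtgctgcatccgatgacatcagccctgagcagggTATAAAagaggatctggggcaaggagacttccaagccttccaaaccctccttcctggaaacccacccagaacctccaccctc
KRTAP3-1 held TATATAA 30 bases before its start, with a TATAAA at 89 bases, and KRTAP3-2 held TATATAA at 33 bases. All 4 KRTAP2 genes held TATATAA, KRTAP2-3 at 30 bases, KRTAP2-1 at 45, KRTAP2-4 at 60 and KRTAP2-2 at 75. The bases after the box are nearly the same in all 4, so these distances differ by where RefSeq places each start. KRTAP4-4 held TATAAA at 32 bases, while KRTAP3-3 held neither spelling in this window. Searched on both strands, where the spellings can overlap in TATATAAA, TATAAA was in 64 of 80 KRTAP start regions and in 12.0% of all 27305 start regions. TATATAA was in 22 of the 80 and in 2.73% of all. The LEF1 and TCF core CTTTGA was in 25 of 80 against 13.1% of all, and of the 5 genes shown only KRTAP3-1 held it. TGANTCA, the AP-1 site, was in 7 of 80 against 7.76%, CCAAT in 33 of 80 against 35.7%, and CACGTG in 2 of 80 against 7.43%. The start region of KRTAP3-1 matched that of KRTAP3-2 in 58.8% of aligned positions, of KRTAP3-3 in 59.6%, of KRTAP2-3 in 56.5% and of KRTAP4-4 in 54.6%. The other KRTAP2 genes matched it in 55.2% (KRTAP2-1), 51.8% (KRTAP2-4) and 49.2% (KRTAP2-2). By this measure its own subfamily was nearest among the genes compared. The measure counts gaps and depends on where each start is placed, and no gene from outside the cluster was aligned. A match is a description of the letters and not a measured site.

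KRTAP3-1, a high sulfur member, had a log2 level of 9.12 on the untreated array, 13.60 with VPA, 13.59 with GEM and 9.32 with the combination. The VPA and GEM arrays were high and level with each other, and the untreated and combination arrays were low. VPA was 22.3-fold and GEM 22.1-fold over untreated, each the highest ratio of the 18377 genes, and the combination was 1.14-fold over untreated. The annotation gives KRTAP3-1 to 2 rows, whose values differed by at most 0.00056 on any array, so they are not separate measurements. On the untreated array 67.4% of rows lay below KRTAP3-1, and on the VPA array 99.6% did. In that top range array ratios can be compressed, so its fold values may be understated and a difference between VPA and GEM hidden.

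**Figure D1:**
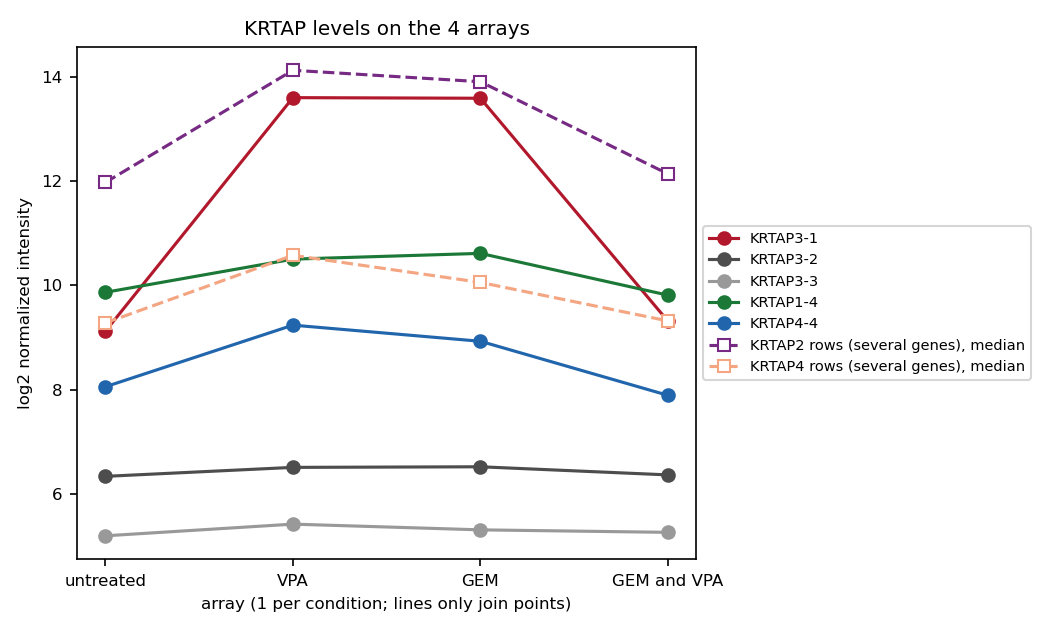
The log2 normalized intensity (y axis) is plotted on each of the 4 arrays (x axis) for 5 members and for the median of the KRTAP2 and KRTAP4 rows that list several genes; levels of different rows are not comparable with each other. KRTAP3-1 stands at 9.12, 13.60, 13.59 and 9.32, the KRTAP2 rows take the same shape with a smaller step, and KRTAP3-2 and KRTAP3-3 stay nearly flat.

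The rest of its own subfamily did not share the step. KRTAP3-2, the neighbouring gene, read 6.34 untreated, 6.51 with VPA, 6.52 with GEM and 6.37 with the combination. KRTAP3-3, the next gene along, read 5.20, 5.42, 5.31 and 5.27. The 4 levels of each gene lay within 0.18 and 0.22 of each other, less than the median range of 0.30 over all genes. Both genes were below the array median on every array, a level at which signal cannot be told from background in these files, so a ratio there may be understated.

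The KRTAP2 subfamily, high sulfur genes of the same cluster, came closest. All 6 of its rows list several KRTAP2 genes, KRTAP2-1 to KRTAP2-4, and 3 of them were distinct (the others repeat one of them within 0.02 on every array). The 3 distinct rows read 11.45 to 11.99 untreated, 13.55 to 14.19 with VPA, 13.34 to 13.91 with GEM and 11.50 to 12.19 with the combination. These rows name the same 4 genes, so they are not separate observations. They were 4.29-fold to 4.62-fold over untreated with VPA and 3.70-fold to 3.82-fold with GEM, with log2 ratios of 0.05 to 0.20 for the combination. Among all rows at or above the array median, 2.05% were at least 2-fold higher with VPA and 1.6% with GEM. The highest of these rows came near the top of the VPA array, whose highest row read 14.67, a range in which array ratios can be compressed. The 4 genes are near copies, so the rows cannot say which of them carried the difference or whether all did.

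KRTAP4 genes, of the ultra-high sulfur class, were higher by less. KRTAP4-4 read 8.06 untreated, 9.24 with VPA, 8.93 with GEM and 7.89 with the combination, which is 2.27-fold with VPA and 1.83-fold with GEM. KRTAP4-2 read 8.90, 9.87, 9.43 and 8.53, or 1.96-fold and 1.45-fold. KRTAP4-1 (log2 ratios of 0.55 with VPA and 0.64 with GEM) and KRTAP4-3 (0.34 and 0.66) followed, and KRTAP4-5 was nearly flat (0.01 and 0.13). All 5 KRTAP4 members were above 0 with either drug. The 9 rows that list several KRTAP4 genes, 8 of them distinct, had log2 ratios of 0.94 to 1.56 with VPA, of which 7 were at least 2-fold. With GEM they had 0.57 to 0.91, of which 0 were. Each of the 8 rows was lower with GEM than with VPA, by a log2 ratio of -0.65 to -0.36. Among all rows at or above the array median, 2.05% were at least 2-fold higher with VPA and 1.6% with GEM. The rows name largely the same genes, so they are not separate observations. KRTAP4-4, KRTAP4-2 and KRTAP4-5 are also named on these rows, so the rows and the members are not independent.

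KRTAP1-4, a high sulfur gene and the nearest measured member on the other side of KRTAP3-1, read 9.87, 10.51, 10.62 and 9.81, or 1.55-fold with VPA and 1.68-fold with GEM. The 3 distinct rows that list several KRTAP1 genes had log2 ratios of -0.02 to 0.43 with VPA and 0.17 to 0.58 with GEM. In the same cluster the ultra-high sulfur genes KRTAP9-1 (0.18 and 0.25), KRTAP9-3 (-0.15 and -0.08) and KRTAP17-1 (-0.08 and -0.02) were close to untreated with both drugs. The 3 rows that list several KRTAP9 genes had log2 ratios of 0.12 to 0.16 with VPA and -0.06 to 0.15 with GEM.

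**Figure D2:**
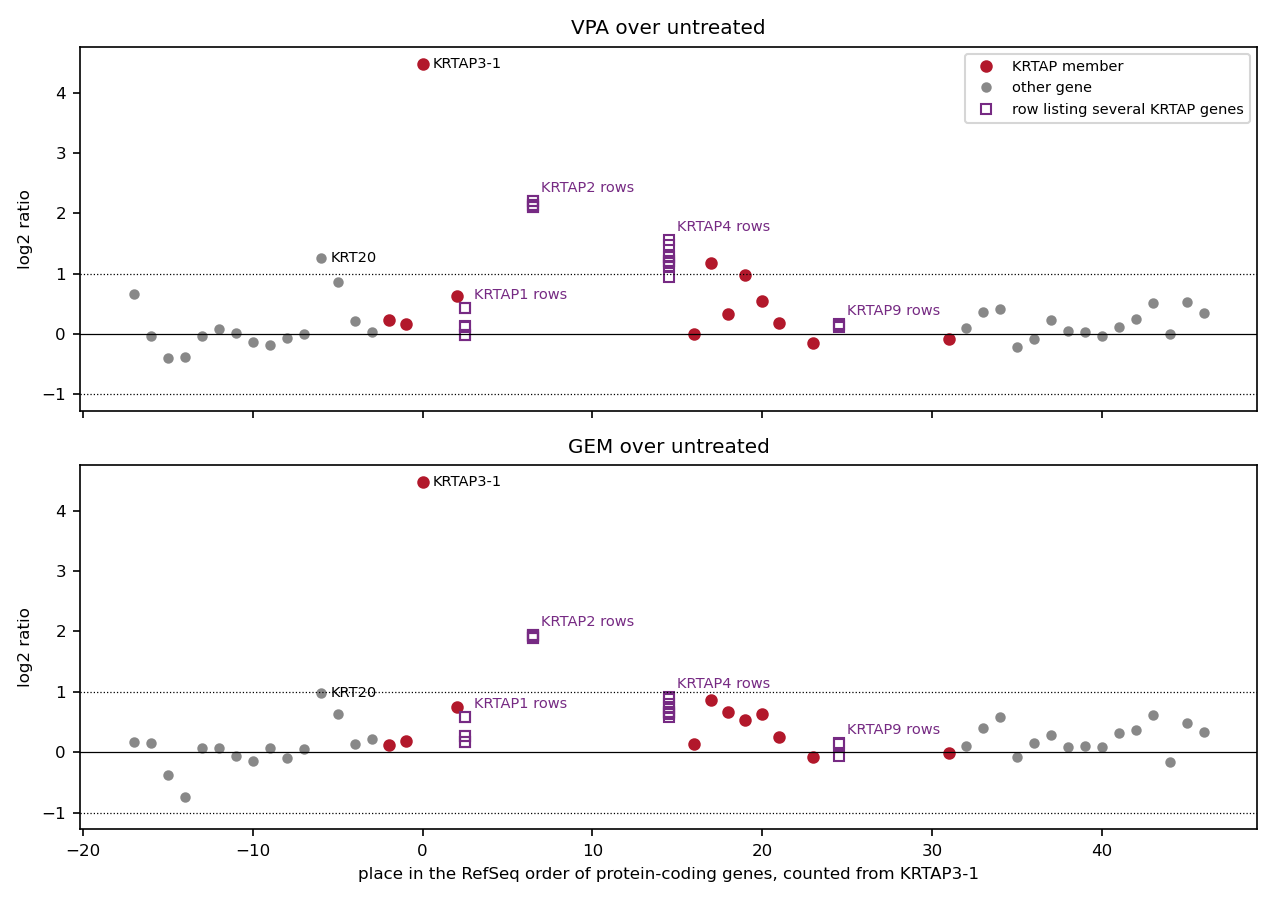
The log2 ratio over untreated (y axis) is plotted against the place in the RefSeq order of protein-coding genes, counted from KRTAP3-1 at 0 (x axis), for VPA (top) and GEM (bottom). Red points are KRTAP members, grey points other genes, and open squares rows that list several KRTAP genes, drawn at the middle of their subfamily, and dotted lines mark 2-fold. Among the KRTAP points KRTAP3-1 is highest, then the KRTAP2 rows, then the highest of the KRTAP4 rows, with KRTAP3-2 and KRTAP3-3 near 0. The grey point KRT20 lies among the KRTAP4 rows with VPA (1.26) and above them with GEM (0.99).

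In RefSeq order the nearest measured genes on one side of KRTAP3-1 are KRTAP3-2, KRTAP3-3 and the hair keratin KRT40, which had log2 ratios of 0.03 with VPA and 0.21 with GEM. On the other side they are KRTAP1-4, KRTAP4-5 and KRTAP4-4. KRTAP3-2, KRTAP3-3, KRT40 and KRTAP4-5 were below the array median on all 4 arrays, so their flat values do not show that these transcripts were unchanged. The genes of the KRTAP2 rows lie between KRTAP1-4 and KRTAP4-5 in that order. KRT20, an intestinal keratin on the KRT40 side, had log2 ratios of 1.26 and 0.99, and the keratin gene KRT23 beside it 0.87 and 0.64. With the combination KRT20 was at -0.57 and KRT23 at -0.39. KRT222, further along that side, was at -0.38 with VPA and -0.75 with GEM. These keratin genes were chosen after their values were seen.

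Over the members, which leave out the rows that list several genes, 2 of 66 were at least 2-fold higher with VPA at a level at or above the array median, KRTAP3-1 and KRTAP4-4, and 0 were lower. Of all genes at level, 1.9% were higher and 2.09% lower. With GEM, 1 member was higher, KRTAP3-1, and 0 were lower, against 1.48% and 3.01% of all genes at level. The level rule was met by 28 members with VPA and 27 with GEM, and a low gene meets it more easily on the array where it is higher. Without that rule the same members passed, 2 with VPA (1.31% of all genes were higher and 1.35% lower) and 1 with GEM (1.02% and 1.93%). Apart from KRTAP3-1, 1 of 27 members at level passed 2-fold with VPA and 0 of 26 with GEM, too few to set against those shares. At 1.5-fold, 5 of 28 members at level were higher with VPA, against 6.64% of all genes at level, and 5 of 27 with GEM, against 5.95%. With VPA these were KRTAP3-1, KRTAP4-4, KRTAP4-2, KRTAP1-4 and KRTAP5-2, and with GEM KRTAP4-1 stood in place of KRTAP4-2. Both counts include KRTAP3-1, by which the family was chosen, so part of each follows from that choice. Of the rows that list several genes, 3 of 3 distinct KRTAP2 rows were at least 2-fold higher with each drug. Of 8 distinct KRTAP4 rows, 7 were with VPA and 0 with GEM. Among the KRTAP1, KRTAP9 and KRTAP10 rows 0 were with either drug. Of all rows at level, 2.05% were higher with VPA and 1.6% with GEM. Rows of a subfamily name largely the same near-copy genes, so these counts are not counts of separate genes.

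The other 65 members had a median log2 ratio of 0.15 with VPA (quartiles -0.05 and 0.26) and 0.11 with GEM (quartiles -0.01 and 0.28), against -0.01 over all genes in both. They were above 0 in 43 of 65 with VPA and 47 of 65 with GEM, beside 48.1% and 48.6% of all genes. The shift lay in the brighter members. The 22 whose mean level was at or above the median row had medians of 0.26 and 0.26, where all genes of that level had -0.05 and -0.05. The 43 dimmer members had medians of 0.02 and 0.05, where all dim genes had 0.01 and 0.02. Ratios of dim genes may be understated, so these values do not show that the dimmer members lacked a shift. Members share near-identical sequence within subfamilies and 1 set of arrays, so they are not separate observations of a shift.

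By class, the 29 high sulfur members had medians of 0.17 with VPA and 0.18 with GEM. Of these, 24 of 29 were above 0 with each drug. Over all genes, 48.1% were above 0 with VPA and 48.6% with GEM. The high sulfur counts include KRTAP3-1, by which the family was chosen. KRTAP10 and KRTAP12 genes of a single cluster make up 15 of the 29. The 18 ultra-high sulfur members had medians of 0.19 and 0.21, with 11 and 13 above 0. The 19 high glycine-tyrosine members had medians of -0.01 and 0.05, with 9 and 11 above 0. Most genes of the last class were dim: 2 of 19 met the level rule with VPA and 1 with GEM.

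Outside chromosome 17, 0 of 54 members passed 2-fold with either drug. Only 21 of them met the level rule with VPA and 20 with GEM. The shares of all genes at level that were higher, 1.9% and 1.48%, would leave few or none to count. KRTAP5-2, an ultra-high sulfur gene of chromosome 11, was the nearest to it, at 8.31 untreated, 9.12 with VPA, 9.21 with GEM and 8.63 with the combination, or 1.75-fold and 1.87-fold. The other 5 members of its cluster, KRTAP5-1 and KRTAP5-3 to KRTAP5-6, lay within 0.28 of untreated with either drug alone. The 15 KRTAP10 and KRTAP12 genes on chromosome 21 had a median of 0.24 with VPA and 0.27 with GEM. The row that lists 10 KRTAP10 genes had log2 ratios of 0.02 and 0.14. The 29 genes of the other chromosome 21 cluster, KRTAP24-1 to KRTAP19-8, had medians of 0.01 and 0.05. The 11 members of the chromosome 17 cluster other than KRTAP3-1 had 0.22 and 0.25.

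**Figure D3:**
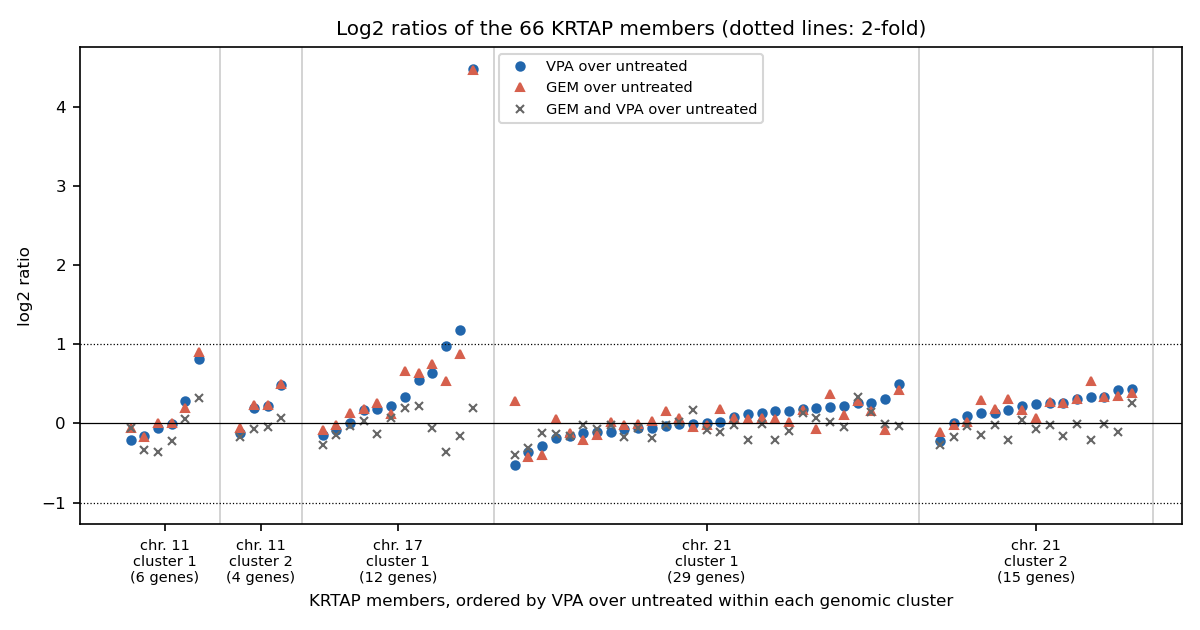
The log2 ratio over untreated (y axis) is plotted for each of the 66 members (x axis), grouped by genomic cluster and ordered by VPA, for VPA (circles), GEM (triangles) and the combination (crosses); dotted lines mark 2-fold. KRTAP3-1 stands alone above 4, and KRTAP4-4 with VPA is the only other point past a dotted line.

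The lowest members were dim. KRTAP21-1, a high glycine-tyrosine gene, read 5.80 untreated, 5.27 with VPA, 6.08 with GEM and 5.40 with the combination. KRTAP13-2 (log2 ratios of -0.37 with VPA and -0.43 with GEM) and KRTAP20-1 (-0.28 and -0.40) were next with VPA and the lowest members with GEM. KRTAP19-5 came next with GEM, at -0.21. All 4 were under the array median on every array.

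With the combination, 0 of 66 members were 2-fold higher or lower than untreated, with or without the level rule. Of genes at level, 0.122% were higher and 0.0261% lower. Without that rule, 0.0816% and 0.0272% of all genes were. The members ran from -0.40 for KRTAP21-1, -0.37 for KRTAP5-4 and -0.36 for KRTAP4-2 to 0.25 for KRTAP10-7, 0.33 for KRTAP5-2 and 0.33 for KRTAP11-1. Of the 65 other than KRTAP3-1, 16 were above 0 (median -0.05), beside 42.5% of all genes (median -0.03). KRTAP3-1 was at 0.19, place 1859 of 18377 from the top.

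Set against each drug alone, the combination array was lower for the genes that the single drugs had higher. These ratios reuse the VPA and GEM arrays, so they do not stand apart from the ratios above. Over VPA, 3 of 66 members were 2-fold lower, KRTAP3-1 (-4.29), KRTAP4-4 (-1.35) and KRTAP4-2 (-1.33), and 0 were higher. Of genes at level, 1.68% were lower and 1.48% higher. Without the level rule the member counts were the same, beside 1.11% and 0.958% of all genes. Over GEM, 2 were lower, KRTAP3-1 (-4.27) and KRTAP4-4 (-1.04, which falls just short of 2-fold with each array centred on its median), against 1.78%, and 0 were higher, against 3.6%. KRTAP1-4 was at -0.69 and -0.80. Of the 22 brighter members other than KRTAP3-1, 1 was above 0 over VPA (median -0.31) and 0 were over GEM (median -0.33). Of all genes of that level, 54.0% and 53.3% were. The brighter group was set by the mean over the same arrays, so members high with VPA or GEM enter it more easily. The KRTAP2 rows were at -2.06 to -1.94 over VPA and -1.84 to -1.72 over GEM. The highest members were KRTAP13-1 (0.16), KRTAP20-1 (0.16) and KRTAP5-3 (0.15) over VPA, and KRTAP20-1 (0.28), KRTAP13-1 (0.21) and KRTAP19-5 (0.19) over GEM.

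The VPA and GEM arrays were close to each other for the family. GEM over VPA gave 0 of 66 members past 2-fold in either direction, with or without the level rule. Of genes at level, 0.0349% were higher and 0.27% lower. Without that rule, 0.0272% and 0.18% of all genes were. KRTAP3-1 was at -0.01. The largest differences were KRTAP21-1 (0.81), KRTAP4-3 (0.32) and KRTAP6-2 (0.24) upward and KRTAP4-2 (-0.44), KRTAP20-2 (-0.39) and KRTAP4-4 (-0.31) downward. KRTAP6-2 and KRTAP20-2 are high glycine-tyrosine genes.

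Each drug's ratio can also be read without and with the other drug, from pairs of arrays that share none. For KRTAP3-1 the VPA ratio was 4.48 without GEM and -4.27 with it, and the GEM ratio was 4.47 without VPA and -4.29 with it. Both readings use the same 4 arrays and are not separate results. The departure from additivity on the log2 scale (the combination's ratio over GEM less the VPA ratio over untreated) was -8.76, the lowest of all genes. The next lowest was -5.06, for the arrestin-domain gene ARRDC4. KRTAP3-1 was chosen for its VPA and GEM ratios over untreated, and the departure subtracts both. Its low place therefore largely follows from that choice. The median departure was -0.27 over the other members and -0.01 over all genes. With 1 array per condition this departure cannot be told apart from a difference between arrays.

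**Figure D4:**
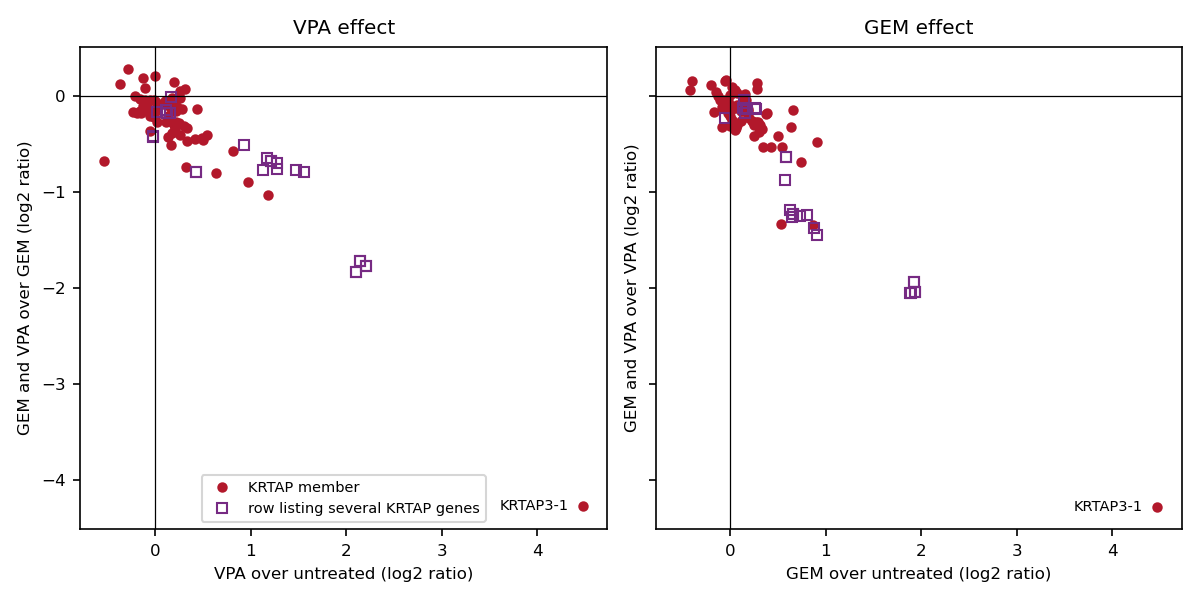
Each point is a KRTAP member (red) or a row that lists several KRTAP genes (open square), placed by the log2 ratio of 1 drug without the other (x axis) and with the other (y axis), for VPA (left) and GEM (right). KRTAP3-1 lies at the lower right of both panels, the KRTAP2 rows near 2 and -2, and most members near 0.

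All 7 biliary and simple epithelial markers were above the array median on every array. Of all 18377 genes, 11207 to 11277 were at or above it, depending on the array. Of the 7 markers, 6 were above 0 with VPA (median log2 ratio 0.51) and 6 with GEM (0.61). Over all genes, 48.1% were above 0 with VPA and 48.6% with GEM. Among genes with a mean level at or above the median row, 44.5% were with each drug. KRT7, a keratin typical of bile duct cells (1.97 and 1.61), and the cadherin CDH1 (0.86 and 0.98) had the largest ratios, and EPCAM was at -0.15 and -0.19. With the combination the median ratio was 0.01. Of 5 leukocyte markers 1 or 2 were above the array median, CD68 on every array and LYZ with GEM. The median log2 ratio of that list was 0.07 with VPA and 0.02 with GEM. The log2 ratios of CD68 were 0.94 with VPA and 0.93 with GEM, and those of LYZ 0.45 and 1.00. PTPRC, the pan-leukocyte gene, lay between 5.21 and 5.34 on all arrays. Of 6 fibroblast markers 1 was above the array median on each array (median log2 ratios -0.01 and 0.02). Of 5 basal and hair follicle keratinocyte markers 2 or 3 were, and all 5 were above 0 with each drug (medians 0.25 and 0.37). The part of these in the KRTAP ratios was not tested.

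Hair keratins are the partners of KRTAP proteins in the hair shaft. Of 14 measured, 10 were above 0 with VPA (median 0.04) and 13 with GEM (median 0.14), beside 48.1% and 48.6% of all genes. With VPA 2 of them met the level rule and with GEM 3, and 0 of these were 2-fold higher or lower. Of all genes at level, 1.9% were higher and 2.09% lower with VPA, and 1.48% and 3.01% with GEM. KRT34 (0.41 and 0.59) and KRT33B (0.36 and 0.40) had the largest ratios. KRT33B and KRT33A were above the array median on every array, and KRT83 only with GEM. The levels of the rest, KRT34 among them, were under it and cannot be told from background here. Of 20 hair follicle regulators and hair shaft genes, 1 was higher with VPA, LIPH, a phospholipase needed for hair growth (1.16, and 0.93 with GEM), and 0 were lower with either drug, with 12 at level. The medians were 0.10 and 0.17. HOXC13, a hair keratin regulator, was at -0.51 and -0.65, and PADI3, an enzyme of the hair shaft, at 0.61 and 0.48, both chosen after their values were seen. On the combination array LIPH was lower than with VPA (-1.20), and S100A3, a calcium-binding protein of the hair cuticle, lower than with GEM (-1.29). S100A3 was at 0.44 with VPA and 0.73 with GEM over untreated. Of genes at level, 1.68% were 2-fold lower than with VPA and 1.78% than with GEM. Markers outside hair were lower too, KRT7 (-2.57 over VPA and -2.21 over GEM) and CD68 (-1.28 and -1.28), while EPCAM was not (0.16 and 0.20). Of 20 epidermal cornified envelope genes, 0 of the 7 at level passed the rule with either drug (medians of all 20, 0.13 and 0.12). LCE1B, a late cornified envelope gene below the array median, was at 1.02 and 1.46.

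The genes whose 4 levels lay nearest to those of KRTAP3-1, each gene centred on its own mean over the 4 arrays, were ARRDC4 (Euclidean distance 1.88 on the log2 scale), TP53INP1 (2.02), CEACAM1 (2.06), RASGRP3 (2.15) and SLC2A3 (2.15). None of them is a KRTAP gene. KRTAP3-1 had the largest range over the arrays of any gene (4.48), so the distance mainly picks genes with a large step on the VPA and GEM arrays. ARRDC4 read 7.97, 10.29, 10.75 and 8.01 in the order untreated, VPA, GEM and combination.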

How the data were processed

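RNA from 1 sample per condition was measured on Affymetrix Human Gene 1.0 ST arrays. The deposited values are log2 intensities that the authors normalized with RMA, per the submitters' processing notes, and handled in GeneSpring GX 11.5, as the series' design text states. RMA equalises intensities between arrays and compresses low values. Rows were named from the platform annotation (1 symbol for 19310 rows, several for 1752, none for 7807), and genes took the mean of their rows. Entrez IDs gave the same RefSeq symbol for 69 of 69 KRTAP rows. A gene was counted at a log2 ratio of at least 1 in size, the authors' limit, with the higher of both values no lower than the median row of its array. No test was run, since each condition had 1 array. The counting steps were checked on simulated data.

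Members, lists and rules were chosen with earlier results of these data known. Named genes were the KRTAP3 genes, the 3 nearest measured genes on each side of KRTAP3-1, the 3 highest and 3 lowest members per comparison, members past 2-fold, list genes past the rule and the 5 nearest patterns. Other named genes illustrate a subfamily or list. Clusters were split where more than 20 genes intervened. Motifs were exact matches, and start regions were aligned globally with Biopython 1.88. Alternatives covered normalization, level filter, fold limit, row choice and the rows with several KRTAP genes. Software was Python 3.11.15, numpy 2.4.6, pandas 2.3.3 and matplotlib 3.10.9.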

Additional observations from a re-analysis of the deposited data

Results flagged for a closer look

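For KRTAP3-1 and for the KRTAP2 rows, both drugs went opposite ways without and with the other drug, each by at least 2-fold. The difference was not tested, since each value rests on 1 pair of arrays. The VPA and GEM readings use the same 4 arrays, so they are not separate results. KRTAP3-1 had a VPA log2 ratio of 4.48 without GEM and -4.27 with it, and a GEM ratio of 4.47 without VPA and -4.29 with it. The KRTAP2 rows had median VPA ratios of 2.14 and -1.77 and median GEM ratios of 1.92 and -2.04. KRTAP4-4 did so for VPA (1.18 and -1.04). Of all 18377 genes, 220 did so for VPA (1.2%) and 262 for GEM (1.43%).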

How the results depend on the processing

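All 20 alternative values of KRTAP3-1 and all 24 alternative medians of the other members lay within 0.1 of the reported value on the log2 scale, also with the rows that list several KRTAP genes added (largest shift 0.07). The medians are small, so 0.1 is a wide limit for them and says little about their stability. With each array centred on its median, 0.15 with VPA became 0.10 and 0.11 with GEM became 0.07. The medians over all genes then became -0.06 and -0.05. Of 24 alternative counts of members called where the reported count was above 0, 17 stayed within 1.5 times it and 7 did not. The 48 others had a reported count of 0 and say nothing about stability. At 1.5-fold, 5 members were higher with VPA (6.64% of all genes at level) and 5 higher with GEM (5.95%). In the combination 5 were lower than with GEM (6.57%). Each of these counts includes KRTAP3-1. At 3-fold, 1 member, KRTAP3-1, was left for VPA over untreated and for the combination under VPA and under GEM. With each array centred on its median, 1 member was lower in the combination than with GEM, since KRTAP4-4 fell short of 2-fold. After quantile normalization of the columns again, KRTAP4-2 joined the members higher with VPA, which made 3. No paired analysis was possible because each condition has 1 array. Values below the array median are not shown to be above background.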
